A study of Mus musculus with 8 samples.

Results

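The genes that make, move and export cholesterol were examined in mouse liver by RNA-Seq. Their 32 members were chosen by symbol from general knowledge of the pathway, among 16650 genes in the table. The rule itself uses no measured value, but it was drawn up with earlier results of these data known. They comprise 19 synthesis enzymes, 6 genes of intracellular transport and storage, and 7 genes of efflux, HDL and uptake. All 32 were measured and none was lost to the filter on low values.

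Livers of 4 mice labelled L2aKO were compared with livers of 4 2afl/fl mice, to ask what loss of *Mfsd2a* does to the liver early in overnutrition. *Mfsd2a* is a transporter of lysophosphatidylcholine. L2aKO mice carry the floxed *Mfsd2a* alleles and Cre recombinase under the albumin promoter, active in hepatocytes, whereas 2afl/fl mice carry the floxed alleles alone. Both genotypes were fed a high-fat NASH diet and drank fructose water for 2 weeks, starting at 8 weeks of age. The mice were 10 weeks old at collection. Animals are given as male unless noted otherwise, and perfused livers were taken at zeitgeber time 4. No chow group was analysed here, so every value describes livers on this diet.

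The quantity throughout is the normalized value, that is, the reads of a gene after scaling of each library by its DESeq2 size factor. Depth worked back from the smallest step between values was 28.3M to 37.2M reads in livers labelled L2aKO and 27.5M to 30.2M in 2afl/fl livers. Differences are log2 fold changes of livers labelled L2aKO over 2afl/fl livers, with the SE of a limma fit on log2(value + 1) over all genes. A gene was called when its unadjusted p was under 0.05 and the fold, in either direction, was at least 25% above 1, as in the methods of the study. *Mfsd2a* itself went against the label, since it averaged 1258 ± 562 in livers labelled L2aKO and 712 ± 579 in 2afl/fl livers (SD, n = 4 each). Its values were 915, 721, 1422 and 1974 in livers labelled L2aKO, against 467, 1569, 300 and 513 in 2afl/fl livers. The genotypes overlapped only through 2afl/fl liver 2. Gene-level reads need not fall in the deleted part, so these values do not check the deletion. The livers labelled L2aKO are called by their label below. At the protein level, the paper reports by immunoblot that Mfsd2a was absent from L2aKO liver. The hepatocyte markers *Alb*, *Ttr*, *Apoa2*, *Tat*, *Cps1* and *Serpina3k* were high in all 8 livers, as the tissue label says. In whole liver, fewer cells of a type and less RNA per cell cannot be told apart.

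Hepatocytes build cholesterol from acetyl-CoA through mevalonate, squalene and lanosterol, and most of these enzymes are transcribed together under SREBP-2, a factor held in the endoplasmic reticulum while sterols are plentiful. Sterol excess works through the oxysterol receptors LXR, which raise transcription of the exporters *Abca1*, *Abcg1*, *Abcg5* and *Abcg8*. The liver also esterifies cholesterol for storage, recovers it from lysosomes and secretes it into bile. SREBP-2 binds sterol response elements, usually with the factor NF-Y, which recognizes CCAAT.

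Promoters of 5 synthesis genes are shown because the enzymes varied between livers to very different degrees. *Hmgcs1*, *Mvd*, *Msmo1* and *Nsdhl* varied widely, and *Ggps1* hardly at all. Each line is the 200 bases before the RefSeq gene start, 5′ to 3′ on the strand of the gene, from build GRCm38. Capitals mark CCAAT on either strand (ATTGG where it lies on the other strand), and in *Hmgcs1* also TCACCCCAC, a match to the sterol response element core TCACNCCAC. They lie at chr13:119690151-119690350 (plus strand) for *Hmgcs1*, chr8:122443423-122443622 (minus strand) for *Mvd*, chr8:64733579-64733778 (minus strand) for *Msmo1*, chrX:72918321-72918520 (plus strand) for *Nsdhl* and chr13:14063489-14063688 (minus strand) for *Ggps1*.
Hmgcs1: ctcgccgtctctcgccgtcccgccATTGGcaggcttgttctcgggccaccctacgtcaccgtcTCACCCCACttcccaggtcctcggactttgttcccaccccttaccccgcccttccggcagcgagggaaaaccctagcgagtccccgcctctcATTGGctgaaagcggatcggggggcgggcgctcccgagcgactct
Mvd: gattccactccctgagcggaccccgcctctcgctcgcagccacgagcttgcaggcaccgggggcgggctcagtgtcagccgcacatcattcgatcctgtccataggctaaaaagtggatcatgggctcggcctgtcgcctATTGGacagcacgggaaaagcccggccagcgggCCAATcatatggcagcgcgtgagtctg
Msmo1: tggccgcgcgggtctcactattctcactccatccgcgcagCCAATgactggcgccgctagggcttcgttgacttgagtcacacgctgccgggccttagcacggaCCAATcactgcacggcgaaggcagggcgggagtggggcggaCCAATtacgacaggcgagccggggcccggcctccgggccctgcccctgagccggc
Nsdhl: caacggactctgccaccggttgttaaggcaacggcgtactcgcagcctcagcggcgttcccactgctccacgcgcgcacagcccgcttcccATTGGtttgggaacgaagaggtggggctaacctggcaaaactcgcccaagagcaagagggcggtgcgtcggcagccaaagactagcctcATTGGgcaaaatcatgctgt
Ggps1: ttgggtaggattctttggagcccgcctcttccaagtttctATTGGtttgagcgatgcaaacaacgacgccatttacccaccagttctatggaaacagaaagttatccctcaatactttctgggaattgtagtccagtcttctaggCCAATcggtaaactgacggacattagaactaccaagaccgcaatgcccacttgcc

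Windows of 250 bases before to 50 bases after the start were found in RefSeq for 24 of the 32 genes. CCAAT, searched on both strands, occurred in 15 of 16 synthesis genes with a window (93.8%) and in 22 of the 24 members (91.7%), against 41.1% of 27025 genes with windows of the same length. TCACNCCAC occurred in 1 of the 16 synthesis genes, *Hmgcs1*, where it begins 137 bases before the start and overlaps no CCAAT, against 1.44% of all genes. Sterol response elements that depart from these letters were not searched, so the other genes may hold some. The LXR element of the DR4 type, searched only as a perfect repeat, was in 0 of the 24 (both strands), against 0.0148% of all genes. A form this rare would be missing from nearly any 24 genes, and imperfect repeats were not searched. The count therefore cannot show whether these promoters, those of the LXR-driven exporters included, hold an LXR element. Within the printed stretches CCAAT stands 3 times in *Msmo1* and 2 times in each of the others. In the whole windows of 300 bases *Ggps1*, which was nearly flat between livers, has 3 CCAAT boxes and *Mvd*, which varied the most after *Sqle*, has 2.

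None of the 32 genes met the criterion in either direction. The counts were 0 of 32 called higher, where 1.32% of all genes were called higher, and 0 of 32 called lower, where 0.781% of all genes were called lower. An unadjusted p under 0.05 without the fold limit was reached by 2 of 32, the lysosomal pair *Npc1* and *Npc2*, compared with 3.49% of all genes. That count ranged from 0 without L2aKO-labelled liver 3 or 2afl/fl liver 3 to 5 without 2afl/fl liver 2. In none of the 32 were the 4 values of one genotype all above or all below those of the other, which held for 2.25% of all genes. The smallest adjusted p among the 32 was 0.9997 (limma, Benjamini-Hochberg over all genes), and 0 of all 16650 genes had an adjusted p under 0.05, the smallest being 0.164. Without 2afl/fl liver 2, 2 genes in the table had an adjusted p under 0.05 (limma), neither of them a member. In that fit 3 members were called higher, *Tm7sf2* (log2 fold change 0.35), *Sc5d* (0.35) and *Stard4* (0.47), among 254 such genes in the table, and the smallest adjusted p among the 32 was then 0.9988 (limma).

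The fitted difference was positive for 27 of the 32 genes, among them all 19 synthesis enzymes, against 8343 of 16650 over all genes. The median log2 fold change was 0.14 for the synthesis enzymes, 0.13 for transport and storage and 0.0015 for efflux, HDL and uptake, beside 0.00034 over all genes. The last of the 3 medians changed sign with the fit, from -0.041 without 2afl/fl liver 2 to 0.060 without L2aKO-labelled liver 1. These signs are not 19 separate observations, since the enzymes moved together from liver to liver. Without 2afl/fl liver 3 the number of positive enzymes was 11 of 19, without 2afl/fl liver 4 it was 13, and without L2aKO-labelled liver 3 it was 15, whereas it stayed at 19 in the other 5 fits that left out a liver.

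**Figure D1:**
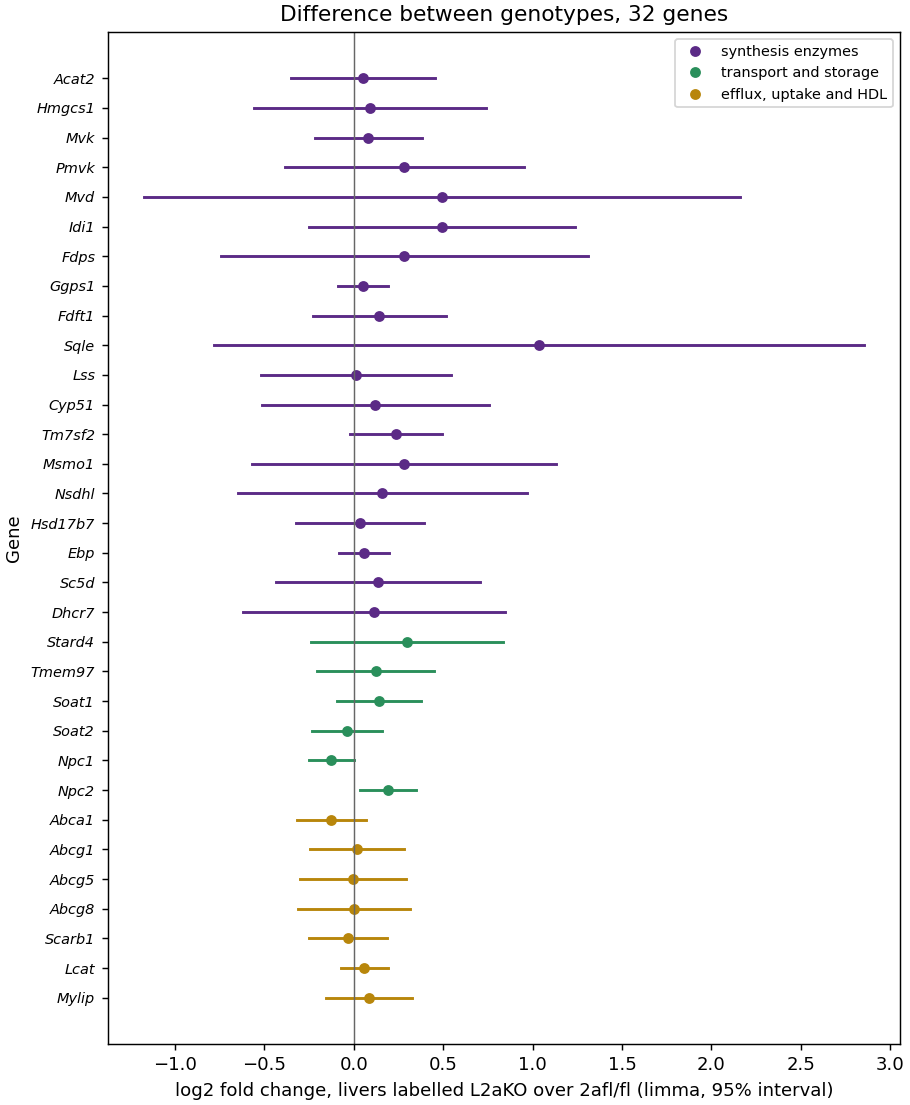
Log2 fold change of each of the 32 genes, livers labelled L2aKO over 2afl/fl livers (n = 4 each), as a point with its 95% interval from limma, coloured by role. The widest intervals belong to *Sqle* (-0.78 to 2.86) and *Mvd* (-1.17 to 2.16), and only those of *Npc2* and *Npc1* leave out 0.

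*Sqle*, the squalene epoxidase that commits squalene to sterols, had the largest fitted difference. It lies at chr15:59315092-59331193 (mm10, plus strand). Its values were 386, 316, 644 and 190 in livers labelled L2aKO, against 301, 474, 79.5 and 72.9 in 2afl/fl livers. 2afl/fl livers 3 and 4 were the lowest of all 8, while 2afl/fl livers 1 and 2 lay within the range of the livers labelled L2aKO. The log2 fold change was 1.04 (SE 0.75, 95% interval -0.78 to 2.86, limma), so a fitted 2.05-fold difference did not exceed the spread. *Sqle* had 204 to 677 reads in livers labelled L2aKO and 70 to 445 reads in 2afl/fl livers. The fitted value depended on single livers, at 0.63 without 2afl/fl liver 4, 0.67 without 2afl/fl liver 3 and 1.53 without 2afl/fl liver 2.

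*Mvd*, which decarboxylates mevalonate diphosphate, showed the same pair of low livers. The gene lies at chr8:122433596-122443422 (mm10, minus strand). Livers labelled L2aKO had 108, 65.5, 164 and 101, against 133, 204, 31.8 and 33.6 in 2afl/fl livers. The lowest and the highest values both belonged to 2afl/fl livers, and all 4 livers labelled L2aKO lay between them. The log2 fold change was 0.49 (SE 0.70, 95% interval -1.17 to 2.16, limma), and it was 0.096 without 2afl/fl liver 3, 0.12 without 2afl/fl liver 4 and 0.98 without 2afl/fl liver 2. It rested on 80 to 172 reads in livers labelled L2aKO and on 28 to 192 reads in 2afl/fl livers.

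The start of the pathway varied less. *Acat2*, the thiolase that makes acetoacetyl-CoA, had 1395, 1424, 1741 and 1576 in livers labelled L2aKO, against 1683, 1968, 1157 and 1232 in 2afl/fl livers (log2 fold change 0.05, SE 0.17). *Hmgcs1*, which condenses the next acetyl-CoA to HMG-CoA, had 5374, 4221, 5472 and 5880, against 5483, 7760, 3369 and 3978 in 2afl/fl livers (0.09, SE 0.27). In both genes all values of livers labelled L2aKO fell inside the range of the 2afl/fl livers, of which liver 2 was highest and liver 3 was lowest. The mevalonate kinase *Mvk* had 251, 219, 196 and 226 in livers labelled L2aKO, against 234, 259, 171 and 186 in 2afl/fl livers (0.08, SE 0.14). *Pmvk*, which adds the second phosphate, had 244, 208, 360 and 245, against 254, 337, 156 and 152 in 2afl/fl livers (0.28, SE 0.29). *Pmvk* was highest in L2aKO-labelled liver 3, and again lowest in 2afl/fl livers 3 and 4.

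*Idi1* makes the activated isoprene unit and *Fdps* joins such units to farnesyl diphosphate. *Idi1* had 1744, 1565, 1837 and 3191 in livers labelled L2aKO, against 1872, 1787, 964 and 1264 in 2afl/fl livers (log2 fold change 0.49, SE 0.31, 95% interval -0.25 to 1.24). L2aKO-labelled liver 4 stood apart for this enzyme, and without that liver the log2 fold change was 0.27. *Fdps* had 1853, 1516, 2201 and 1886, against 2446, 2580, 960 and 876 in 2afl/fl livers (0.28, SE 0.42), so its 2afl/fl values fell on both sides of every liver labelled L2aKO. *Ggps1* makes geranylgeranyl diphosphate, used for protein prenylation rather than for sterols. It had 501, 536, 517 and 510 in livers labelled L2aKO, against 489, 503, 486 and 509 in 2afl/fl livers (0.05, SE 0.06). Its highest liver exceeded its lowest by 1.07 times in livers labelled L2aKO and 1.05 times in 2afl/fl livers, beside 3.40 times in livers labelled L2aKO and 6.50 times in 2afl/fl livers for *Sqle*.

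The squalene and lanosterol steps on either side of *Sqle* varied less than *Sqle* itself. *Fdft1*, the squalene synthase, had 975, 1048, 1334 and 1088 in livers labelled L2aKO, against 893, 1384, 849 and 948 in 2afl/fl livers (log2 fold change 0.14, SE 0.16). *Lss*, which cyclizes oxidosqualene to lanosterol, had 837, 845, 1182 and 871, against 1033, 1317, 746 and 694 in 2afl/fl livers (0.01, SE 0.23). The fitted difference of *Lss* was the smallest among the synthesis enzymes, and its sign became negative without L2aKO-labelled liver 3 or without either of 2afl/fl livers 3 and 4. *Fdft1* overlaps the more abundant *Ctsb* by 773 bases on the opposite strand, and *Lss* overlaps the scarce *4930483K19Rik* by 11269 bases. Because strand-aware counting is not stated in the sources used here, reads in these stretches may be shared.

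The enzymes that turn lanosterol into cholesterol gave no call either. *Cyp51*, the lanosterol 14-demethylase, had 1148, 1209, 1734 and 1124 in livers labelled L2aKO, against 1474, 1658, 846 and 937 in 2afl/fl livers (log2 fold change 0.12, SE 0.27). *Msmo1*, the methylsterol oxidase, had 715, 699, 919 and 907, against 818, 1190, 427 and 459 in 2afl/fl livers (0.28, SE 0.35). *Msmo1* spanned a 1.31-fold range in livers labelled L2aKO and a 2.79-fold range in 2afl/fl livers. *Nsdhl*, the sterol dehydrogenase of the same demethylation, had 487, 380, 595 and 449, against 614, 641, 300 and 268 in 2afl/fl livers (0.16, SE 0.34). *Dhcr7*, the final reductase, had 1490, 1290, 1622 and 1308, against 1919, 1835, 1051 and 805 in 2afl/fl livers (0.11, SE 0.31). In *Nsdhl* and *Dhcr7*, 2afl/fl livers 1 and 2 lay above every liver labelled L2aKO, and 2afl/fl livers 3 and 4 lay below every one.

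*Sc5d*, the lathosterol desaturase, was the most abundant synthesis enzyme both as a normalized value and per length. Its values were 12299, 11206, 14978 and 12541 in livers labelled L2aKO, against 12537, 17935, 8447 and 9318 in 2afl/fl livers (log2 fold change 0.14, SE 0.24). *Tm7sf2*, a sterol 14-reductase, had 1494, 1361, 1395 and 1440, against 1277, 1535, 992 and 1089 in 2afl/fl livers (0.24, SE 0.12, 95% interval -0.02 to 0.50). *Tm7sf2* was nearly level across livers labelled L2aKO, where its highest exceeded its lowest by 1.10 times, and only 2afl/fl liver 2 lay above them. *Hsd17b7*, the 3-ketosteroid reductase, had 1307, 1167, 1415 and 1330, against 1318, 1754, 1069 and 1053 in 2afl/fl livers (0.04, SE 0.16). *Ebp*, the sterol isomerase, had 3697, 3289, 3536 and 3751, against 3613, 3620, 3234 and 3253 in 2afl/fl livers (0.06, SE 0.06). *Ebp* varied little, by 1.14 times in livers labelled L2aKO and 1.12 times in 2afl/fl livers, though its lowest livers were still 2afl/fl livers 3 and 4.

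The pattern shared by the enzymes was one of livers within a genotype, seen after the values were examined and given as a description. 2afl/fl livers 3 and 4 were the lowest of the 8 in 17 of 19 synthesis enzymes (89.5%), the exceptions being *Ggps1* and *Fdft1*, against 4.40% of all genes. 2afl/fl liver 2 was the highest of the 8 in 12 of the 19. In 13 of the 19 all livers labelled L2aKO lay inside the range of the 2afl/fl livers (68.4%), against 22.6% of all genes. Because the enzymes rise and fall together, these counts are not over independent genes.

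Put by liver, the median enzyme deviated from its own mean over 8 livers by 0.06, -0.09, 0.31 and 0.06 on the log2 scale in livers labelled L2aKO, against 0.15, 0.45, -0.52 and -0.39 in 2afl/fl livers. All 19 enzymes were below their mean in 2afl/fl liver 3 and 18 in 2afl/fl liver 4, but only 1 in 2afl/fl liver 2. The summed normalized values of the 6 hepatocyte markers were 2.13M, 2.15M, 2.09M and 1.94M in livers labelled L2aKO, against 1.95M, 1.99M, 1.76M and 1.72M in 2afl/fl livers. The sum was lowest in 2afl/fl livers 3 and 4, but these were the lowest livers for 1 of the 6 markers taken singly, *Ttr*, and the part of hepatocyte content in the enzyme values was not tested. Their depth, 27.5M and 30.2M reads, was the lowest and the highest among 2afl/fl livers.

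**Figure D2:**
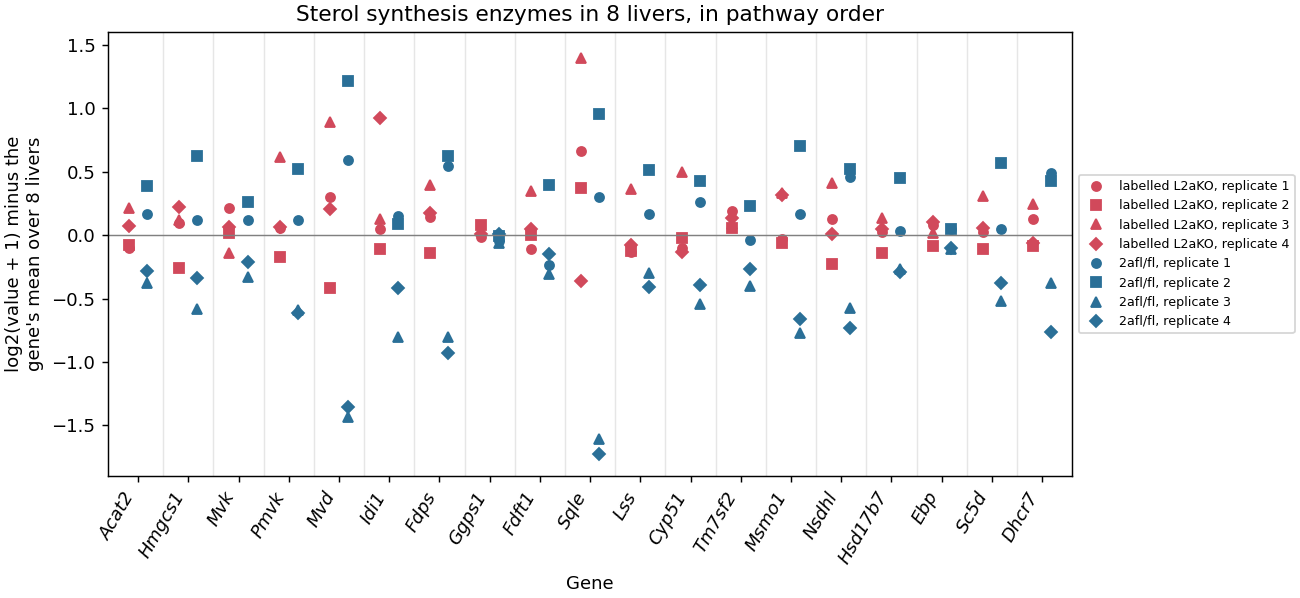
Log2(value + 1) of the 19 synthesis enzymes in pathway order, minus each gene's mean over 8 livers. Livers labelled L2aKO are red and 2afl/fl livers blue, 1 symbol per replicate. 2afl/fl livers 3 and 4 (triangles and diamonds) are the lowest in 17 of 19 enzymes and 2afl/fl liver 2 (squares) is the highest in 12.

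Spread between livers differed accordingly. The SD of log2(value + 1) was smaller in livers labelled L2aKO than in 2afl/fl livers for 17 of 19 synthesis enzymes, whose median SD was 0.21 in livers labelled L2aKO and 0.48 in 2afl/fl livers. Over all genes it was smaller in livers labelled L2aKO for 49.8%, with median SDs of 0.17 in each genotype. The exceptions were *Idi1* (0.46 in livers labelled L2aKO and 0.45 in 2afl/fl livers) and *Ggps1* (0.04 in livers labelled L2aKO and 0.03 in 2afl/fl livers). The difference in spread was not tested, and it rests on genes that move together in 4 livers of each genotype.

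**Figure D3:**
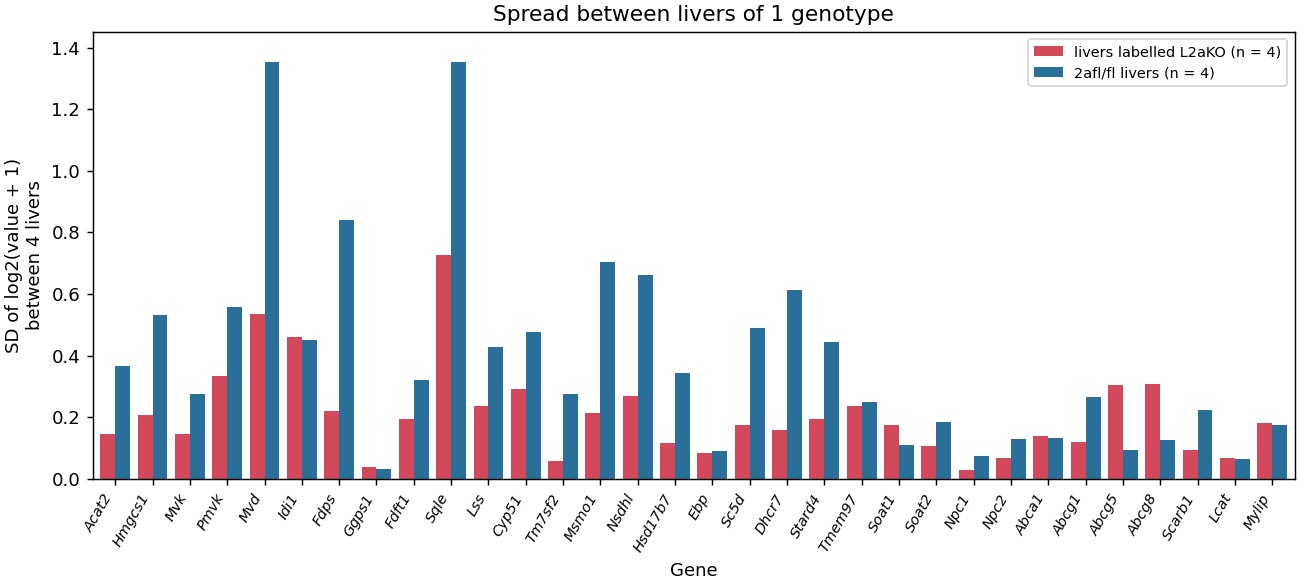
SD of log2(value + 1) between the 4 livers of each genotype for the 32 genes, livers labelled L2aKO in red and 2afl/fl livers in blue. The bars of 2afl/fl livers are the taller for 17 of the 19 synthesis enzymes, most of all for *Mvd* and *Sqle*. Among the efflux, HDL and uptake genes they are the taller for 2 of 7. Bars of livers labelled L2aKO exceed those of 2afl/fl livers most for *Abcg5* and *Abcg8*.

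Among the transport and storage genes *Stard4* shared the low livers of the enzymes. *Stard4*, a soluble carrier of sterol between membranes, had 3429, 3843, 4163 and 4732 in livers labelled L2aKO, against 3488, 4643, 2201 and 3179 in 2afl/fl livers (log2 fold change 0.30, SE 0.23). 2afl/fl livers 3 and 4 were again the lowest, which held for 1 of the 6 genes of this group. *Tmem97*, the sigma-2 receptor, which binds NPC1, had 918, 753, 1023 and 1093, against 876, 1088, 795 and 726 in 2afl/fl livers (0.12, SE 0.15). 2afl/fl livers 3 and 4 were low for *Tmem97* too, with only L2aKO-labelled liver 2 between them.

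Lysosomal export of cholesterol needs NPC2, which takes sterol inside the lysosome, and NPC1, which receives it in the membrane. *Npc2* had 1081, 1055, 1177 and 1102 in livers labelled L2aKO, against 940, 977, 876 and 1085 in 2afl/fl livers. The genotypes overlapped only through 2afl/fl liver 4, and the log2 fold change was 0.19 (SE 0.07, 95% interval 0.03 to 0.35, limma), below the fold limit. *Npc1* had 5668, 5911, 5659 and 5777, against 5865, 6323, 6286 and 6664 in 2afl/fl livers. Here too a single 2afl/fl liver, liver 1, reached into the other range, and the log2 fold change was -0.13 (SE 0.06, 95% interval -0.25 to -0.00089, limma). The partners thus had fitted differences of opposite sign, neither called and both with an adjusted p of 0.9997 (limma). Kupffer cells and recruited macrophages, which also use this route, were followed by their markers. All 10 Kupffer cell markers had positive fitted differences and 0 were called, and their summed values ran from 9541 to 11975 in livers labelled L2aKO and from 8261 to 10482 in 2afl/fl livers. All 8 markers of recruited macrophages were positive as well, with 1 called higher (*Lgals3*), and their sums ran from 1428 to 1769 in livers labelled L2aKO and from 1233 to 1477 in 2afl/fl livers. None of the Kupffer cell and recruited macrophage markers was at 0, and their part in the *Npc2* value was not tested. Over all genes 8343 of 16650 were positive, 1.32% were called higher and 0.781% lower. Positive differences were not particular to macrophages. They were found for 5 of 6 hepatocyte, 5 of 6 endothelial, 4 of 6 stellate, 2 of 4 bile duct, 5 of 5 lymphocyte and 3 of 4 erythroid markers. Of these, 1 stellate, 1 lymphocyte and 2 erythroid markers were called higher. *Npc1* overlaps *Rmc1* by 276 bases on the opposite strand.

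The acyltransferases that esterify cholesterol did not differ beyond their spread. *Soat1*, the form of most tissues, had 235, 283, 268 and 216 in livers labelled L2aKO, against 244, 220, 205 and 237 in 2afl/fl livers (log2 fold change 0.14, SE 0.11, 95% interval -0.10 to 0.37). *Soat2*, the hepatocyte and intestinal form, had 1085, 1218, 1293 and 1159, against 1017, 1334, 1213 and 1330 in 2afl/fl livers (-0.04, SE 0.09, 95% interval -0.23 to 0.16). Per kilobase of exon *Soat2* stood at 538 in livers labelled L2aKO and 554 in 2afl/fl livers, and *Soat1* at 29.9 in livers labelled L2aKO and 27.1 in 2afl/fl livers, the lowest level of the 32 genes.

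Efflux, HDL and uptake genes did not share the low livers of the enzymes: 2afl/fl livers 3 and 4 were the lowest for 0 of 7. *Abca1*, which loads cholesterol onto apolipoprotein A-I, had 22718, 27046, 22178 and 25927 in livers labelled L2aKO, against 27832, 23397, 28868 and 26579 in 2afl/fl livers (log2 fold change -0.12, SE 0.09). The ranges overlapped, and 2afl/fl liver 3, lowest or second lowest for all 19 enzymes, was the highest for *Abca1*. *Abcg1*, which passes sterol to HDL, had 579, 693, 657 and 688, against 624, 510, 796 and 681 in 2afl/fl livers (0.02, SE 0.12), and was likewise highest in 2afl/fl liver 3. Its fitted difference became -0.011 with library weights.

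*Abcg5* and *Abcg8* together form the pump that secretes sterol into bile. *Abcg5* had 8009, 8971, 7884 and 12406 in livers labelled L2aKO, against 8912, 8507, 9505 and 9862 in 2afl/fl livers (log2 fold change -0.0041, SE 0.13, but 0.017 under quantile normalization). *Abcg8* had 9565, 11039, 10320 and 15520, against 10665, 10474, 12271 and 12287 in 2afl/fl livers (0.0015, SE 0.14, but -0.035 under library weights). Both were highest in L2aKO-labelled liver 4, without which the log2 fold changes were -0.15 for *Abcg5* and -0.15 for *Abcg8*. Their SDs of log2(value + 1) were larger in livers labelled L2aKO, 0.30 for *Abcg5* and 0.31 for *Abcg8*, against 0.09 for *Abcg5* and 0.13 for *Abcg8* in 2afl/fl livers. The genes lie head to head at chr17:84658174-84683011 (minus strand) and chr17:84676302-84700333 (plus strand, mm10) and overlap by 6710 bases in the table's coordinates. Their values are therefore not independent if reads were counted without regard to strand.

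The remaining genes of this group gave no call. *Scarb1*, the HDL receptor, had 5365, 4820, 5257 and 4694 in livers labelled L2aKO, against 5510, 4259, 6093 and 4881 in 2afl/fl livers (log2 fold change -0.03, SE 0.10). *Lcat*, the plasma enzyme that esterifies cholesterol on HDL, had 7624, 7049, 7326 and 7861, against 6727, 7178, 7298 and 7448 in 2afl/fl livers (0.06, SE 0.06). *Lcat* had the highest level per kilobase of exon, 5563 in livers labelled L2aKO and 5337 in 2afl/fl livers, followed by *Abcg5* and *Abcg8*. *Mylip*, an LXR-regulated ubiquitin ligase that sends lipoprotein receptors to degradation, had 363, 400, 488 and 393, against 351, 437, 343 and 416 in 2afl/fl livers (0.09, SE 0.11).

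**Figure D4:**
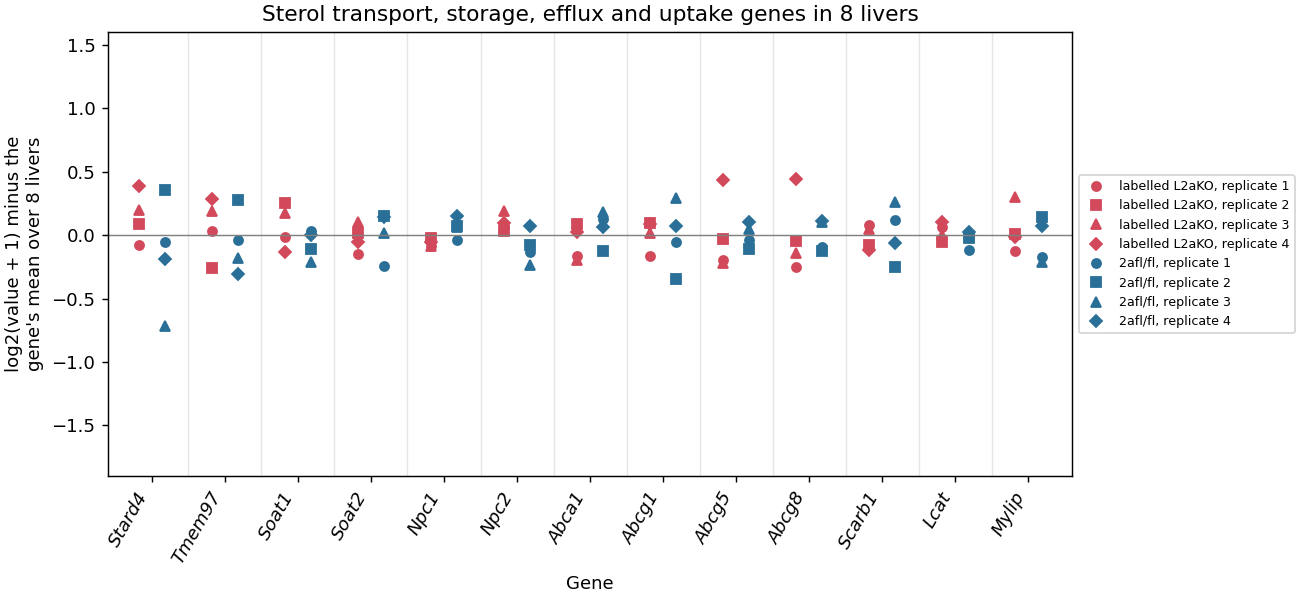
Log2(value + 1) of the 13 transport, storage, efflux, HDL and uptake genes, minus each gene's mean over 8 livers, on the axis used for the synthesis enzymes. Livers labelled L2aKO are red and 2afl/fl livers blue, 1 symbol per replicate. *Stard4* is lowest in 2afl/fl livers 3 and 4, and *Abcg5* and *Abcg8* are highest in L2aKO-labelled liver 4.

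Genes that sense sterols were called in 0 of 13 cases. *Srebf2*, which encodes SREBP-2, had 1413, 1343, 1575 and 1374 in livers labelled L2aKO, against 1377, 1601, 1192 and 1228 in 2afl/fl livers (0.09, SE 0.09). Its order followed the enzymes, with 2afl/fl liver 2 highest and livers 3 and 4 lowest. The LXR gene *Nr1h3* had a log2 fold change of -0.06 (SE 0.07). *Insig1*, an SREBP target that retains SREBP in the endoplasmic reticulum, was added after its values were seen. It had 9429, 8719, 15448 and 11180 in livers labelled L2aKO, against 9603, 19113, 5775 and 6893 in 2afl/fl livers (0.24, SE 0.41), again lowest in 2afl/fl livers 3 and 4.

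Other genes of sterol movement were called in 0 of 14 cases and other sterol and isoprenoid enzymes in 0 of 8. In the list of sterol movement, the log2 fold change was 0.12 (SE 0.08) for the lysosomal lipase *Lipa* and -0.09 (SE 0.08) for *Gramd1c*, a sterol carrier at membrane contacts. Among the isoprenoid enzymes the smallest p values belonged to *Dhdds*, which makes dolichol precursors (log2 fold change -0.10, SE 0.08), *Pdss1*, which makes the tail of ubiquinone (0.13, SE 0.13), and the sterol 14-reductase *Lbr* (0.12, SE 0.13). Each of these differences lay within 2 SE of 0.

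Fatty acid synthesis genes, set beside the enzymes because SREBP factors act on both, had the same low livers. 2afl/fl livers 3 and 4 were the lowest in 10 of 12, against 4.40% of all genes. The SD of log2(value + 1) was smaller in livers labelled L2aKO than in 2afl/fl livers in 12 of 12, against 49.8% of all genes. Its medians were 0.28 in livers labelled L2aKO and 0.65 in 2afl/fl livers. The desaturases *Fads1* and *Fads2* were the 2 called higher of the 12, with 0 called lower. Over all genes 1.32% were called higher and 0.781% lower. *Fads1* had 14192, 12503, 13892 and 13078 in livers labelled L2aKO, against 10290, 13844, 7189 and 9187 in 2afl/fl livers (log2 fold change 0.44, SE 0.18, adjusted p = 0.9997, limma). *Fads2* had 23348, 20949, 22222 and 23264, against 20525, 22432, 14096 and 13485 in 2afl/fl livers (0.38, SE 0.16, adjusted p = 0.9997, limma). When 1 liver was left out *Fads1* lost its call in 7 of 8 fits, with log2 fold changes of 0.29 to 0.61 and no change of sign, and kept it without 2afl/fl liver 2. *Fads2* lost its call in 6 of 8 such fits, with 0.27 to 0.51 and no change of sign, and kept it without 2afl/fl liver 1 or 2. *Fads2* also lost it under eBayes without trend or robust. *Srebf1*, which encodes SREBP-1, had a log2 fold change of -0.13 (SE 0.09).

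**Figure D5:**
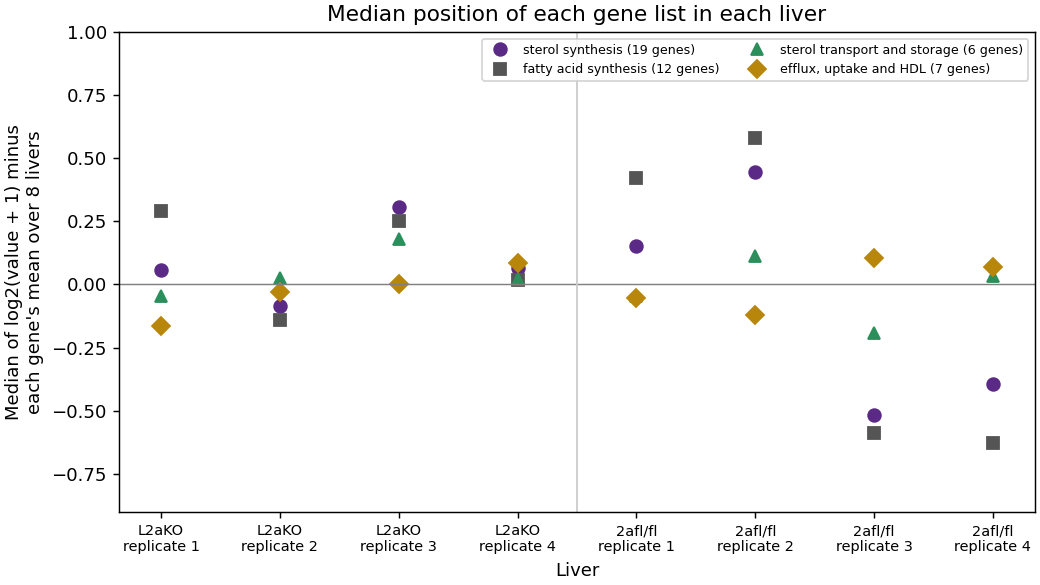
Median over each gene list of log2(value + 1) minus the gene's mean over 8 livers, for the 4 livers labelled L2aKO on the left and the 4 2afl/fl livers on the right. Sterol and fatty acid synthesis are both lowest in 2afl/fl livers 3 and 4 (-0.52 and -0.39 for sterol synthesis, -0.59 and -0.63 for fatty acid synthesis), where the efflux list stands at 0.11 and 0.07.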

How the data were processed

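Liver RNA of 8 mice was sequenced, 4 livers labelled L2aKO and 4 2afl/fl livers, and each column was mapped to its liver by its label. According to the methods and the submitters' processing notes, reads were mapped to mm10 with STAR 2.7.8a in Partek Flow version 10, with DESeq2 for differential expression. The authors deposited a normalized signal, in which each library's gene reads were scaled by its DESeq2 size factor. The annotation, strand setting and gene filter are not given in the sources used here.

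The step between small values gave the value of 1 read, and thereby depth. Of values under 100 reads, 88.6 to 89.2% were within 0.02 of a whole number of reads, so whole reads were not recovered and tests for counts were not used. All 16650 genes had a mean of at least 1 and were tested. Genotypes were compared by limma 3.58.1 under R 4.3.3 (lmFit, then eBayes with trend and robust) on log2(value + 1), two-sided, without covariates, and p was adjusted by Benjamini-Hochberg over all genes. The pseudocount of 1 understates changes of low genes. Fold changes are on that scale, values per genotype are mean and SD, and intervals are 95%. Scripts were tested on simulated data.

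The members and lists were chosen with earlier results of these data known. By the naming rule all 32 members are named, and of each other list the genes called and up to 3 of smallest p, except that some genes the rule would name are not reported here. The replicates are separate livers of 1 genotype. The p-values weigh the difference between genotypes against the spread between livers, which eBayes moderates over all genes. No batch was given in the labels. Levels per kilobase used exon unions of GENCODE M21 (GRCm38), and sequences come from RefSeq windows on GRCm38. The table's end coordinates were reduced by 1 base. Windows were found for 24 members, but not for *Soat2*, *Npc1*, *Sqle*, *Fdps*, *Stard4*, *Fdft1*, *Scarb1* and *Abcg1*. Other settings tried were the pseudocount, the low-value filter, the scaling, eBayes options, library weights, a replicate block and the removal of each liver.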

Additional observations from a re-analysis of the deposited data

Results flagged for a closer look

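In 3 of the 64 sets of 4 livers examined, 1 liver stood far from the other livers of its genotype, as judged by its gap to the nearest value over the whole range. Chance alone would single out about 1 in 20 such sets. *Idi1* was 3191 in L2aKO-labelled liver 4, whose nearest neighbour was 1837. *Cyp51* was 1734 in L2aKO-labelled liver 3, beside 1209 in the next. *Lss* was 1182 in that same liver, beside 871 in the next.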

How the results depend on the processing

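Of 288 refits of single members under 9 other settings, 285 kept direction and call. The exceptions were *Abcg1* (-0.011) and *Abcg8* (-0.035) under library weights and *Abcg5* (0.017) under quantile normalization, and the cause was not tested. Members called numbered 0 in all 9. Members with an unadjusted p under 0.05 numbered 1 under quantile normalization, upper-quartile scaling, eBayes without trend or robust and the replicate block, and 2 in the other 5. Genes called over the whole table fell to 229 with a mean of at least 10, against 349, fewer genes being tested, and those called lower to 80, against 130. Quantile normalization gave 167 higher and 169 lower, against 219 and 130.

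Leaving out 1 liver kept direction and call in 218 of 256 refits. Members called higher ranged from 0 to 3. The 3 came without 2afl/fl liver 2, namely *Tm7sf2* (0.35), *Sc5d* (0.35) and *Stard4* (0.47), each with an adjusted p of 0.9988 (limma). Genes called lower ranged from 84 to 191. The synthesis median ranged from 0.03 to 0.31, the transport median from 0.088 to 0.16 and the efflux median from -0.041 to 0.060 (-0.032 with library weights). Without a change of sign, *Fdps* ranged from 0.019 to 0.54 and *Msmo1* from 0.071 to 0.56. Sign changed for 14 members, and their log2 fold changes ranged from -0.065 to 0.19 for *Acat2*, -0.090 to 0.31 for *Hmgcs1*, -0.014 to 0.18 for *Mvk*, -0.12 to 0.19 for *Lss*, -0.039 to 0.28 for *Cyp51*, -0.057 to 0.36 for *Nsdhl*, -0.055 to 0.19 for *Hsd17b7*, -0.013 to 0.35 for *Sc5d*, -0.12 to 0.30 for *Dhcr7*, -0.12 to 0.0085 for *Soat2*, -0.094 to 0.12 for *Abcg1*, -0.15 to 0.068 for *Abcg5*, -0.15 to 0.086 for *Abcg8* and -0.12 to 0.050 for *Scarb1*.

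Replicate numbers are shared between the genotypes, and the labels state no pairing. Deviations of same-numbered livers correlated weakly, at -0.003, -0.12, 0.003 and 0.06, which cannot show whether the mice were paired. With a replicate block 0 members were called and 359 genes overall.

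The spread between 4 livers limits what can be seen for *Sqle* and *Mvd*, and the interval of *Mvd* holds a 2-fold difference in either direction.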
